A study of Mus musculus with 18 samples.

Results

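The 40 genes described here are interferon-stimulated genes. They were listed by name, but with earlier results of these data known. They were drawn by symbol from the 45706 genes of the count files, all 40 were found, and all 40 passed the filter on low counts in both cohorts. RNA was sequenced from 18 whole kidneys of male C57BL/6 mice aged 10 to 12 weeks, every one of them taken 12 h after 22.5 min of bilateral ischemia. In the Cxcl12 cohort, 5 Cxcl12 KO mice carried a floxed Cxcl12 gene with the Pax8rtTA and TetOCre transgenes, and 3 Cxcl12 Control mice carried the floxed gene with Pax8rtTA alone. The Myc cohort had the same transgenes on a floxed Myc gene, in 5 Myc KO and 5 Myc Control mice. All mice had received doxycycline for 2 weeks followed by 1 week without it, which switches on the recombinase in tubule cells of the KO mice. Pax8 drives the system in tubule epithelium, so that other cells of the kidney keep the floxed gene, and no uninjured kidney was part of the comparison.

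Interferons are secreted when a cell senses foreign or misplaced nucleic acid. Type I interferons signal through Ifnar1 and Ifnar2 and the kinases Jak1 and Tyk2 to a complex that includes Stat2 and Irf9 and binds the interferon-stimulated response element (ISRE) of its target genes. Interferon gamma acts through Ifngr1 and Ifngr2 on genes that carry the gamma-activated site (GAS). The products of the target genes block viral replication, sense nucleic acids, process antigens and feed back on the pathway.

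Both sites can be read in the promoters, and 6 promoters are printed to show the range from several matches to none. The letters searched were GAAANNGAAA for the ISRE (TTTCNNTTTC on the other strand) and TTCNNNGAA for the GAS, which reads the same on either strand, in RefSeq windows of GRCm38.p6 from 250 bases before to 50 bases after each gene's start. The table held 31 of the 40 genes in 38 windows. The ISRE letters were found in 19 of the 38 windows (50% against 3.44% of all 32851 windows), which belong to 18 genes. The GAS letters were found in 10 windows (26.3% against 8.3%) of 10 genes. Both kinds lay in 5 genes and neither in 8. By role, all 5 interferon-inducible GTPases in the table, all 3 sensors and 3 of 4 IFIT genes held the ISRE letters, against 0 of 3 antigen processing genes. The stretches below are RefSeq sequence, written 5′ to 3′ on the strand of the gene, with the matches in capitals, and no match says only that these letters are not in the window.

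The 6 stretches of 200 bases are those of Isg15 (chr4:156200789-156200988, minus strand), Ifit1 (chr19:34640719-34640918, plus strand), Ifit3 (chr19:34583359-34583558, plus strand), Igtp (chr11:58199386-58199585, plus strand), Irf1 (chr11:53769844-53770043, plus strand) and Xaf1 (chr11:72301459-72301658, plus strand), all on GRCm38.p6. Isg15 carries 3 overlapping ISRE matches, Ifit1 and Ifit3 carry 2 each, Igtp carries a GAS next to an ISRE, Irf1 carries a GAS only, and Xaf1 carries no match.
Isg15: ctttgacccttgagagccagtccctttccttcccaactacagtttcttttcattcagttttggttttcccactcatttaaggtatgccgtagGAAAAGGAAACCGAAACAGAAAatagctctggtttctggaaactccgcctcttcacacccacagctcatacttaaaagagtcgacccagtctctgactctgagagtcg
Ifit1: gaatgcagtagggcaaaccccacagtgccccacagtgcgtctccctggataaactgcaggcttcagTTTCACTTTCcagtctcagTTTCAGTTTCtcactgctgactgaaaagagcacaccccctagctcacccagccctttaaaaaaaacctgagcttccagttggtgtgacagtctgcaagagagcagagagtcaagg
Ifit3: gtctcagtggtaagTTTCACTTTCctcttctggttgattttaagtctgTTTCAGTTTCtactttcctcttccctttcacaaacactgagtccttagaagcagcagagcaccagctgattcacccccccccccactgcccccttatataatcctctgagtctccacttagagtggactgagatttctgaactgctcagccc
Igtp: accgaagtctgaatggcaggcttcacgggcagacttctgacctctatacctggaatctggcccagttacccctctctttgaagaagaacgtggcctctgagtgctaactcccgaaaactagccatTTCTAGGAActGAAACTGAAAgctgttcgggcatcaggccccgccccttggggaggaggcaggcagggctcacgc
Irf1: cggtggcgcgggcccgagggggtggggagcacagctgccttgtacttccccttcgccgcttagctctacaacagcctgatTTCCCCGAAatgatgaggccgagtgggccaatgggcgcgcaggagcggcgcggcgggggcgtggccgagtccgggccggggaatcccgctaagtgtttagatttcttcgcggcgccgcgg
Xaf1: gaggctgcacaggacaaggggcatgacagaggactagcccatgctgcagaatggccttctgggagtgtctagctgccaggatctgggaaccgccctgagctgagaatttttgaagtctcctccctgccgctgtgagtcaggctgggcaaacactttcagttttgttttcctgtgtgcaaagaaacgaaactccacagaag

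Reads on genes numbered from 12918220 to 29749500 in a kidney. Levels are given as CPM, the count of a gene scaled to a common library size with the TMM method over the 18 kidneys. The deleted genes had lower levels in their own KO kidneys, without overlap. Cxcl12 ranged from 26.3 to 40.9 CPM in Cxcl12 KO and from 44.9 to 60.5 CPM in Cxcl12 Control kidneys (log2 fold change -0.73, adjusted p = 0.094 from edgeR), and Myc ranged from 26.6 to 37.0 CPM in Myc KO and from 79.7 to 117 CPM in Myc Control kidneys (-1.61, adjusted p = 8.8e-05 from edgeR). The kidney label fits the 4 proximal tubule markers, whose summed level lay between 2683 and 4340 CPM in every library. The unmapped share lay under 5% in 6 libraries, called deeper libraries here, namely Cxcl12 KO 1 and 2, Myc KO 3 and 5, and Myc Control 1 and 3. A gene is termed called where edgeR, fitted over all genes that passed the filter, gave an adjusted p under 0.05. The labels name the samples of a group only as separate samples, so that the p-values measure the spread between these samples. Reads were counted without regard to strand, so that a gene and an antisense or overlapping neighbour cannot be told apart.

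The 40 genes fall into 8 roles. The IFIT family has Ifit1, Ifit2, Ifit3 and Ifit3b, the sensors are Ifih1, Ddx58, Dhx58, Zbp1 and Eif2ak2, the OAS family has Oasl1, Oasl2, Oas1a, Oas2 and Oas3, the ISG15 pathway has Isg15 and Usp18, the transcription factors are Irf1, Irf7, Irf9 and Stat2, the GTPases are Gbp2, Gbp3, Gbp7, Igtp, Iigp1 and Irgm1, antigen processing has Psmb8, Psmb9 and Tap1, and the other antiviral and induced proteins are Isg20, Mx1, Mx2, Rsad2, Bst2, Rtp4, Xaf1, Trim30a, Parp14, Ifi44 and Ifi35. Members of the IFIT, OAS and GBP families resemble each other. Reads that mapped to more than 1 place, 16.6 to 18.6% of a library, were counted for no gene, so that levels of such genes can be too low. Levels were low to moderate and spanned a wide range when scaled by exon length (RPKM, the CPM per kilobase of exon). The mean over the 18 kidneys was highest for Bst2 (16.7 RPKM), which encodes tetherin, a protein that holds budding virus at the cell surface. Next came Ifi35 (9.602 RPKM), the immunity-related GTPase Irgm1 (8.45 RPKM), Eif2ak2 (7.22 RPKM), which encodes the double-stranded RNA kinase PKR, and Irf9 (6.48 RPKM). The median gene of the list had 2.73 RPKM, 8 genes had at least 5 RPKM, and 6 had under 1 RPKM. The lowest were Mx1 (0.18 RPKM), Oas3 (0.21 RPKM) and Mx2 (0.28 RPKM), and these 3 were also the only ones with fewer than 10 reads in any kidney, so that their values are the least precise.

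Before any comparison, a single control kidney stood apart. Myc Control 1 was the highest of the 18 kidneys for 34 of the 40 genes, where 666 of the 15903 genes tested over all kidneys (4.19%) were highest there. Against the median of the 18 kidneys, the list stood at a median of 1.32 on the log2 scale in Myc Control 1 (quartiles 0.82 and 2.09), and all 40 genes lay above it. The next kidneys were Myc KO 5 at 0.37 and Myc Control 2 at 0.27, and the lowest were Cxcl12 Control 3 at -0.45 and Cxcl12 KO 5 at -0.44. The median over all genes tested was -0.01 in Myc Control 1. The heat map of deviations shows this kidney as a single column.

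**Figure D1:**
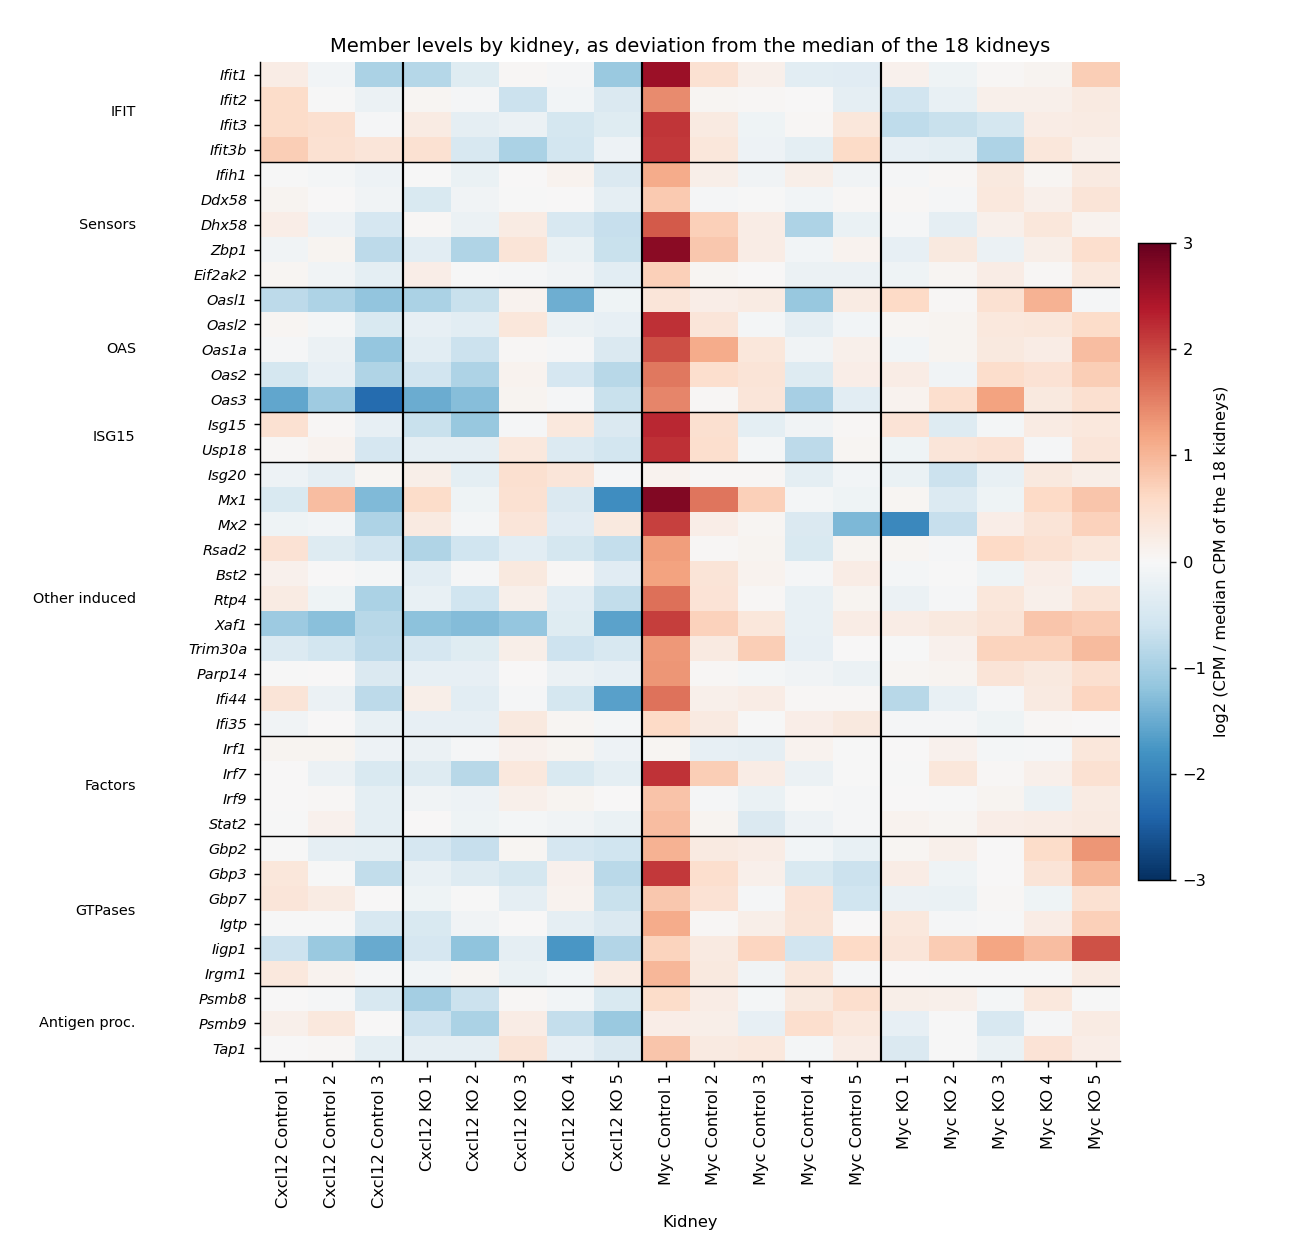
Level of each of the 40 genes (rows, grouped by role) in each of the 18 kidneys (columns, grouped by genotype), as the log2 ratio to the gene's median over the 18 kidneys; red is above and blue below. Myc Control 1 is above the median in all 40 rows, and Iigp1, Xaf1 and Oas3 are mostly blue in the Cxcl12 cohort and mostly red in the Myc cohort.

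The deviation of Myc Control 1 differed in size between the roles. The ISG15 pathway (median deviation 2.22 on the log2 scale) and the IFIT family (2.13) stood highest, followed by the OAS family (1.57), the other antiviral proteins (1.33), the sensors (1.11), the GTPases (1.02), the transcription factors (0.89) and antigen processing (0.56). Ifit1, whose product binds foreign RNA ends and blocks their translation, had 794 reads in Myc Control 1 and 68 to 170 reads in the other Myc Control kidneys. It had 30.6, 7.14, 5.75, 4.19 and 4.09 CPM in Myc Control 1 to 5, and 6.16 times the median of the other 4 in Myc Control 1. Zbp1, a sensor of left-handed nucleic acid, had 12.9, 3.47, 2.302, 1.85 and 2.14 CPM in the same kidneys, a ratio of 5.80.

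Isg15, a ubiquitin-like protein that is attached to other proteins, had 15.3, 4.39, 2.61, 2.96 and 3.26 CPM in the Myc Control kidneys, 4.19, 2.42, 3.06, 3.79 and 3.93 CPM in Myc KO, 4.37, 3.23 and 2.69 CPM in Cxcl12 Control and 1.98, 1.44, 3.11, 3.94 and 2.36 CPM in Cxcl12 KO kidneys. The first Myc Control kidney was 3.48 times the highest of the 17 others. Irf7, the factor that amplifies type I interferon genes, had 43.5, 16.2, 11.4, 8.62 and 9.73 CPM in the Myc Control kidneys, and its value in Myc Control 1 was 2.69 times the highest of the 17 others. Usp18, which removes Isg15 and silences the receptor, was at 4.52 times the median of the other Myc Control kidneys, Oasl2 at 4.78, Gbp3 at 4.70, Mx1 at 5.25 and Mx2 at 4.65. Ifit1, Zbp1, Isg15 and Irf7 are shown here for their place in this kidney, which was seen first.

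In 14 genes of the list, Myc Control 1 was at least 2 times every other kidney. Over all genes tested 22 met this limit (0.138%), so that 14 of these 22 belong to the list. Other genes stood out less. Tap1, the peptide transporter of antigen processing, had 24.4, 16.6, 17.02, 13.3 and 15.96 CPM in the Myc Control kidneys, and Irf9, the DNA-binding part of the type I interferon complex, had 61.4, 33.03, 29.4, 33.7 and 32.7 CPM. In 6 genes another kidney was higher. These were Isg20, Oasl1, Irf1, Gbp2, Iigp1 and Psmb9, of which Irf1, Gbp2 and Iigp1 were highest in Myc KO 5. Among genes with the ISRE letters in the promoter, the median deviation in Myc Control 1 was 1.23 (18 genes, 0.73 to 2.56), and among those in the table without them it was 0.82 (13 genes, 0.07 to 2.18). The 9 genes with no window in the table had a median of 1.85, above both.

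**Figure D2:**
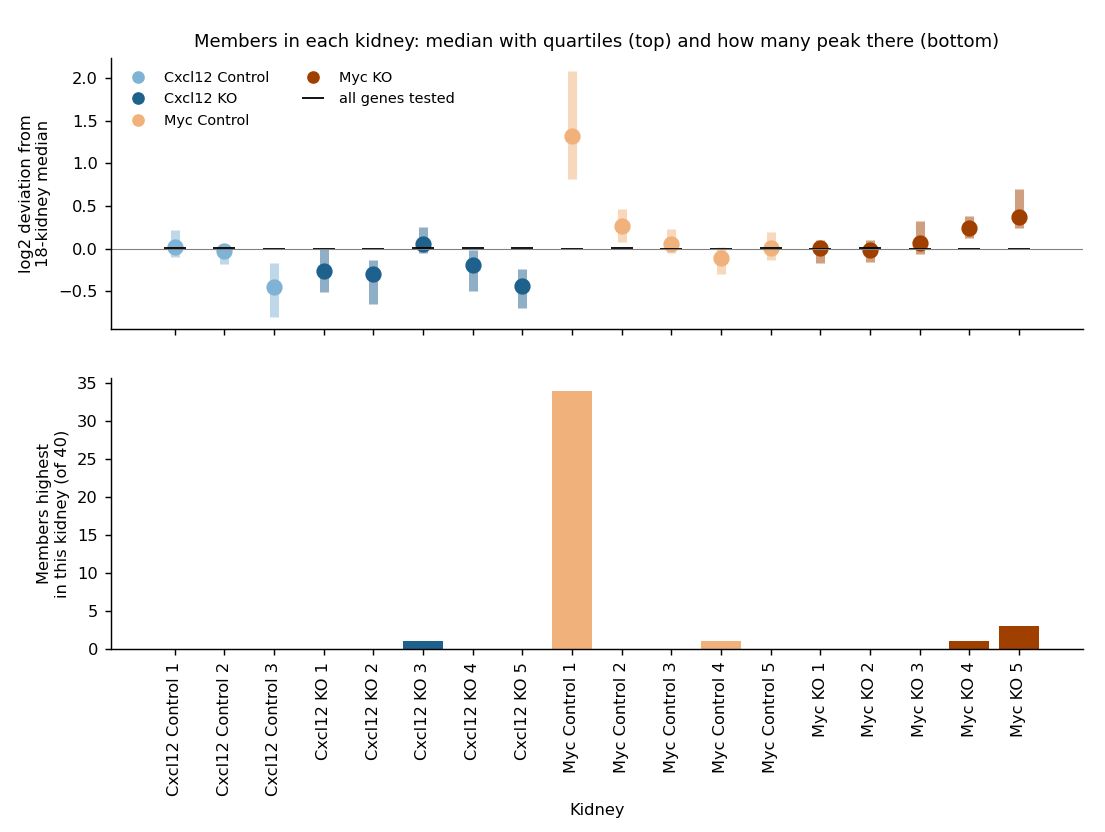
Top: median (point) and quartiles (bar) of the log2 deviation of the 40 genes from their 18-kidney medians in each kidney, with the median over all genes tested as a black dash. Bottom: number of the 40 genes that are highest in that kidney; Myc Control 1 holds 34 of them.

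The interferons themselves were close to absent from the reads at this single time point. The 10 interferon genes listed (Ifnb1, 4 alpha genes, Ifne, Ifnk, Ifng, Ifnl2 and Ifnl3) had at most 3 reads together in any kidney, 4 of them had none anywhere, and 11 kidneys had none from any of the 10. Myc Control 1 had 1 read, from Ifnb1. A count of 0 allows up to 3 reads in a library, so that low transcription was not detectable at this depth. Among the pathway genes outside the list, Myc Control 1 was the highest kidney for Nlrc5, the activator of class I genes, at 1.68 times the next kidney, for Tlr9 at 1.40, for Tapbp at 1.10 and for Erap1 at 1.03. Among the receptors of type I interferon, Myc Control 1 had Ifnar1 at 79.5 CPM (rank 14 of 18) and Ifnar2 at 25.2 CPM (rank 13).

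Marker lists of the cell types a kidney can hold were read beside this, and no marker was at 0 in all 18 kidneys. None of the 12 lists was at its highest in Myc Control 1. Summed over 4 general leukocyte markers it had 40.5 CPM, which ranked 12 of 18, over 6 macrophage markers 89.6 CPM (rank 13), over 6 neutrophil markers 42.6 CPM (rank 13), over 3 plasmacytoid dendritic cell markers 1.23 CPM (rank 10), over 7 T and NK cell markers 1.503 CPM (rank 10) and over 3 B cell markers 0.15 CPM (rank 16). The plasmacytoid dendritic, T and NK, and B cell markers had at most 31 reads each in any kidney, so these ranks are imprecise. Within the T and NK list, the ranks of Myc Control 1 ran from 1 for Nkg7 to 17 for Cd4. Whether these cell types differed in Myc Control 1 was not tested. The 5 endothelial markers of Myc Control 1 summed to 671 CPM (rank 11) and its 3 tubular injury markers to 2844 CPM (rank 10). This library was also a deeper one, with 3.69% unmapped reads, the lowest share of the 18, while the other 5 deeper libraries had list medians from -0.30 to 0.37 on the log2 scale. In whole kidneys, fewer cells of a type and less RNA per cell cannot be told apart.

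Deletion of Cxcl12, a chemokine that guides leukocytes, was compared next. No gene of the list was called in Cxcl12 KO against Cxcl12 Control kidneys (0 of 40 by edgeR, with 5 at an unadjusted p under 0.05, and 0 by DESeq2 and limma-voom). The background in this comparison was also 0 of 15154 genes by edgeR (0.0%), with 1976 (13.0%) at an unadjusted p under 0.05, and 355 by DESeq2 (2.34%) and 0 by limma-voom. The median log2 fold change of the list was -0.09, with 12 genes higher and 28 lower, where 7602 of the 15154 genes tested were higher. Groups overlapped for all 40 genes, where 4.96% of all genes had every KO kidney above every control and 4.72% every KO kidney below.

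By role, the 4 IFIT genes were all at lower means in Cxcl12 KO kidneys (median -0.45), none passing the adjusted threshold. Ifit3 had 10.8, 10.3 and 7.23 CPM in the 3 control and 8.85, 6.18, 6.53, 5.16 and 5.77 CPM in the 5 KO kidneys, a log2 fold change of -0.54 (standard error 0.20, adjusted p = 0.30 from edgeR). Ifit3b, a near copy of Ifit3, had 4.04, 3.34 and 3.11 CPM in control and 3.34, 1.74, 1.24, 1.66 and 2.17 CPM in KO kidneys, with -0.76 (standard error 0.29, adjusted p = 0.31 from edgeR). Reads that mapped to both Ifit3 and Ifit3b were counted for neither. In both genes only Cxcl12 KO 1 reached into the control range. Ifit2 (-0.35) and Ifit1 (-0.22) had smaller fold changes.

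The OAS enzymes make the oligoadenylates that activate RNase L, and the 5 genes of the family, with the OAS-like Oasl1 and Oasl2, had a median of 0.10, and all 5 had higher means in Cxcl12 KO kidneys. Oas3 had the widest difference but few reads. It had 0.498, 0.6997 and 0.299 CPM in control and 0.528, 0.606, 1.56, 1.44 and 0.9302 CPM in KO kidneys, with 0.95 (standard error 0.47, adjusted p = 0.42 from edgeR). Oasl1, an OAS-like protein that restrains the translation of Irf7, had 7.14, 6.51 and 5.44 CPM in control and 6.34, 7.804, 13.3, 4.495 and 11.3 CPM in KO kidneys. The KO kidneys of Oasl1 lay on both sides of the controls, with a fitted log2 difference of 0.42 (standard error 0.31, adjusted p = 0.58 from edgeR).

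The other 3 genes with an unadjusted p under 0.05 came from other roles. Psmb9, a catalytic subunit of the immunoproteasome, had 2.82, 3.18 and 2.57 CPM in control and 1.67, 1.33, 2.96, 1.55 and 1.18 CPM in KO kidneys, where only Cxcl12 KO 3 reached the control range, with -0.75 (standard error 0.29, adjusted p = 0.32 from edgeR). Gbp7, a guanylate-binding protein of cell-autonomous defence, had 17.3, 15.99 and 13.7 CPM in control and 12.3, 13.3, 11.3, 14.5 and 8.496 CPM in KO kidneys, with -0.39 (standard error 0.16, adjusted p = 0.35 from edgeR). Rsad2, the antiviral enzyme viperin, had 23.7, 13.3 and 11.8 CPM in control and 9.42, 11.6, 14.1, 12.2 and 10.7 CPM in KO kidneys, with -0.50 (standard error 0.21, adjusted p = 0.37 from edgeR). In Rsad2 the first control kidney was the highest of the 8, and the other 2 controls lay inside the KO range.

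No gene of the sensors or transcription factors had an unadjusted p under 0.05. The sensors had log2 fold changes from -0.17 to 0.06, the transcription factors from -0.10 to 0.06 and the GTPases from -0.39 to 0.19. Irgm1, a regulator of the other immunity-related GTPases, had 55.4, 47.9 and 43.6 CPM in control and 42.2, 46.3, 39.1, 42.3 and 52.6 CPM in KO kidneys. Tap1 had 13.99, 14.1 and 11.2 CPM in control and 11.4, 11.5, 17.9, 11.7 and 10.2 CPM in KO kidneys. In both genes the groups overlapped. Irf9 had 34.02, 34.8 and 27.6 CPM in control and 31.3, 30.3, 37.5, 35.7 and 33.8 CPM in KO kidneys, and Eif2ak2 had 37.3, 33.6 and 29.1 CPM in control and 41.2, 35.8, 35.2, 33.4 and 28.8 CPM in KO kidneys, with a log2 fold change of 0.06 in each. The list median was -0.21 without Cxcl12 Control 3 and -0.0023 without Cxcl12 Control 1, and no gene was called in either case.

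Deletion of Myc, the growth-promoting transcription factor, also gave no call in the list. No gene of the list was called in Myc KO against Myc Control kidneys (0 of 40 by edgeR with 5 at an unadjusted p under 0.05, 0 by DESeq2 with 7, and 0 by limma-voom with 2), while 246 of 14936 genes (1.65%) were called over all genes and 3268 (21.9%) had an unadjusted p under 0.05. DESeq2 called 1139 of all genes (7.63%) and limma-voom 215 (1.44%). The median log2 fold change of the list was -0.31, with 7 genes higher and 33 lower. The direction depended on 1 kidney. Without Myc Control 1 the median was 0.10, with 24 genes higher and 16 lower, 0 genes called, 6 at an unadjusted p under 0.05, and a background of 277 of 15112 genes called (1.83%) and 3342 at an unadjusted p under 0.05 (22.1%). The sign changed in 17 of the 40 genes. Myc Control 1 stood out by these same genes, so p-values without it, here and below, are not independent of that choice. No gene of the list had KO and control kidneys apart (2.05% of all genes had KO above and 3.92% KO below), and without Myc Control 1 only Parp14 had (3.67% above and 5.45% below).

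**Figure D3:**
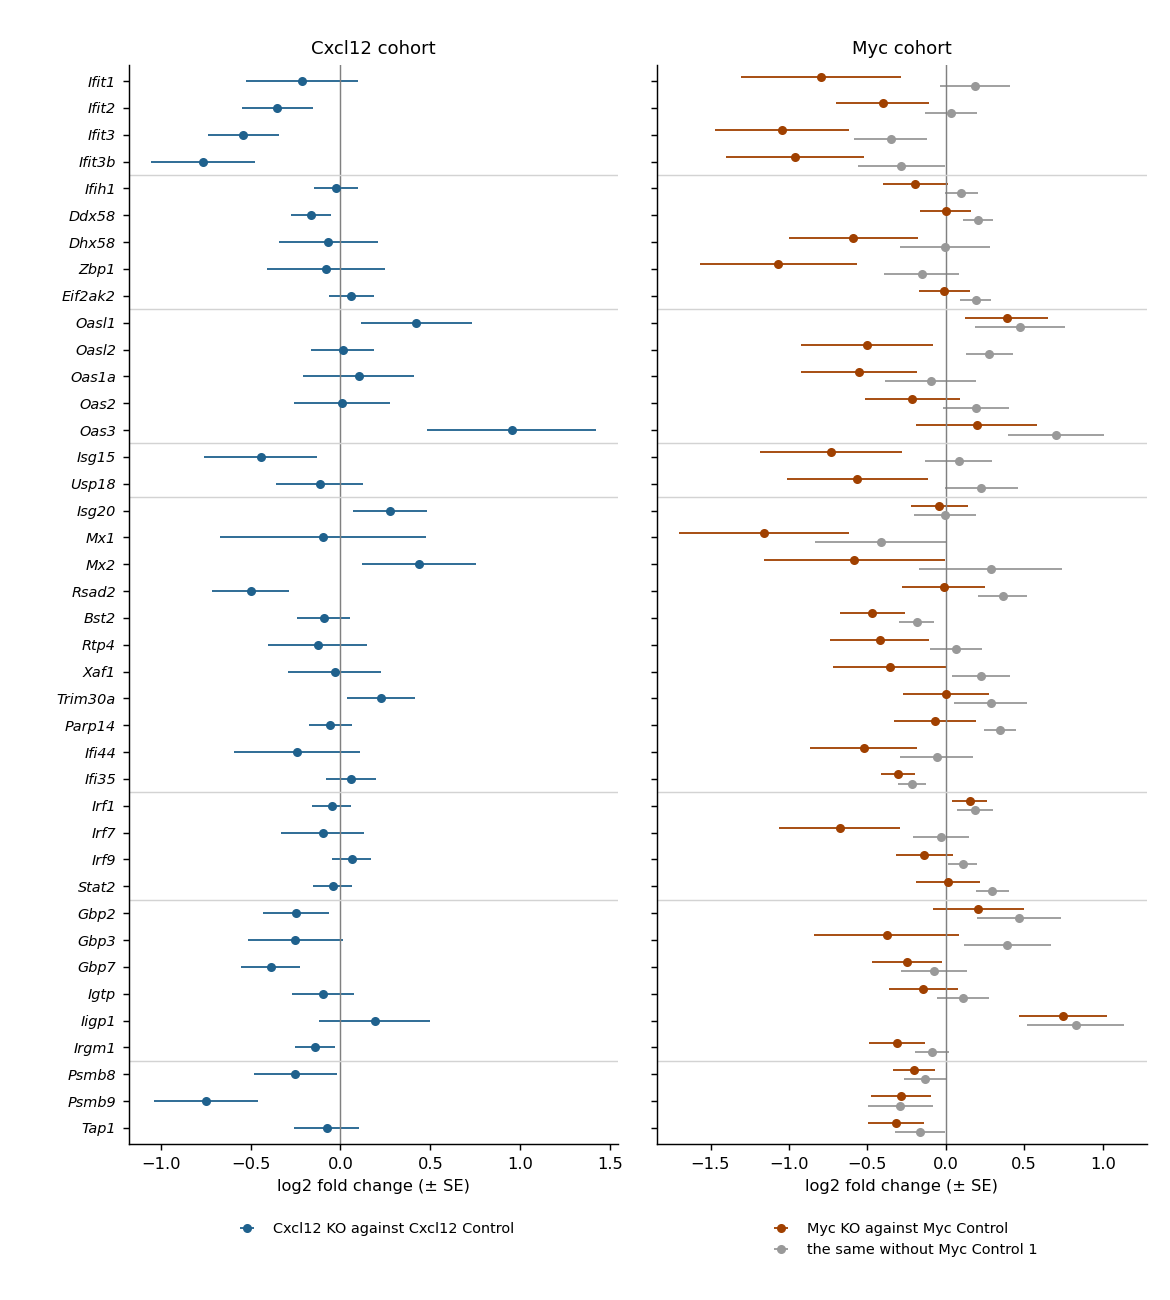
Log2 fold change of KO against control kidneys with its standard error for the 40 genes, from edgeR: left the Cxcl12 cohort, right the Myc cohort with (brown) and without (grey) Myc Control 1. No point passed an adjusted p of 0.05; in the Myc cohort the brown points lie mostly below 0 and the grey points on both sides of it.

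Ifi35, an interferon-induced leucine zipper protein, had the smallest unadjusted p in the Myc cohort. It had 24.1, 19.3, 15.9, 18.2 and 19.5 CPM in control and 15.5, 15.7, 14.5, 16.5 and 16.1 CPM in KO kidneys, with -0.31 (standard error 0.11, adjusted p = 0.14 from edgeR). All 5 KO kidneys were below the control mean (exact two-sided permutation p = 0.024, not adjusted over the 40 genes), and without Myc Control 1 the log2 fold change was -0.21. Iigp1, an immunity-related GTPase that attacks vacuoles holding parasites, had a higher mean in the KO kidneys. It had 22.6, 17.1, 22.3, 9.55 and 21.4 CPM in control and 18.3, 24.3, 32.6, 27.01 and 53.4 CPM in KO kidneys, with 0.75 (standard error 0.28, adjusted p = 0.16 from edgeR). The highest value was that of Myc KO 5, and without Myc Control 1 the log2 fold change was 0.83 (adjusted p = 0.15 from edgeR).

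The IFIT family again had 4 of 4 lower means in the Myc KO kidneys (median -0.88), and here the differences were smaller without Myc Control 1. Ifit3 had 32.8, 8.98, 6.74, 7.58 and 9.43 CPM in control and 4.35, 4.67, 5.12, 8.69 and 8.83 CPM in KO kidneys, with -1.04 (standard error 0.43, adjusted p = 0.19 from edgeR). Ifit3b had 10.5, 3.08, 2.17, 1.97 and 3.62 CPM in control and 2.06, 1.97, 1.28, 3.04 and 2.6997 CPM in KO kidneys, with -0.96 (standard error 0.44, adjusted p = 0.23 from edgeR). Without Myc Control 1 the log2 fold changes were -0.35 for Ifit3, -0.28 for Ifit3b, 0.03 for Ifit2 and 0.19 for Ifit1, and the family's median was -0.13. Bst2 had 32.1, 18.02, 14.9, 13.4 and 16.1 CPM in control and 13.2, 13.7, 12.7, 15.8 and 12.997 CPM in KO kidneys, with -0.47 (standard error 0.21, adjusted p = 0.22 from edgeR), and -0.19 without Myc Control 1.

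Parp14, an ADP-ribosyltransferase, was the gene whose groups separated once Myc Control 1 was set aside. It had 65.8, 26.5, 25.2, 24.4 and 23.3 CPM in the Myc Control kidneys 1 to 5 and 27.4, 27.7, 34.02, 32.04 and 36.4 CPM in Myc KO kidneys. Every KO kidney was above Myc Control 2 to 5 and below Myc Control 1. The log2 fold change was -0.07 with all 10 kidneys and 0.35 without Myc Control 1 (standard error 0.10, adjusted p = 0.095 from edgeR). In the Cxcl12 cohort Parp14 had 25.8, 26.5 and 19.4 CPM in control and 21.96, 21.9, 26.4, 22.98 and 22.1 CPM in KO kidneys, with -0.06 (standard error 0.12, adjusted p = 0.88 from edgeR).

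Stat2, Rsad2 and Oas3 also had an unadjusted p under 0.05 in the Myc cohort only once Myc Control 1 was left out, with log2 fold changes of 0.30, 0.36 and 0.70 and adjusted p of 0.14, 0.20 and 0.21 from edgeR. In that fit 22.1% of all genes had an unadjusted p under 0.05. Rsad2 had 41.6, 17.8, 18.4, 12.7 and 18.5 CPM in control and 18.4, 17.2, 26.5, 23.8 and 22.3 CPM in KO kidneys. Of its KO kidneys, 3 lay above Myc Control 2 to 5, and all 5 lay below Myc Control 1. Eif2ak2 had 59.4, 37.2, 36.05, 31.7 and 31.6 CPM in control and 32.99, 37.7, 41.7, 36.9 and 44.8 CPM in KO kidneys, a log2 fold change of -0.01 with Myc Control 1 and 0.19 without it. Irf9 had 34.3, 33.7, 35.8, 29.2 and 39.9 CPM in the Myc KO kidneys against 29.4 to 61.4 CPM in the controls, and its log2 fold change was -0.14.

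The median of antigen processing changed less than that of any other role when Myc Control 1 was left out. Its 3 genes had a median of -0.29 with and -0.16 without that kidney. Psmb9 had 2.93, 2.88, 2.17, 3.63 and 3.203 CPM in control and 2.14, 2.53, 1.83, 2.48 and 3.01 CPM in KO kidneys, and its log2 fold change was -0.29 either way. Tap1 had 10.2, 13.6, 12.03, 18.2 and 15.9 CPM in the Myc KO kidneys against 13.3 to 24.4 CPM in the controls, with -0.32. Irgm1 had 89.4, 54.7, 41.2, 56.3 and 43.2 CPM in control and 44.8, 44.04, 44.2, 43.96 and 52.4 CPM in KO kidneys, with -0.31, and -0.09 without Myc Control 1. Within the 4 deeper libraries of this cohort the list median was -0.43, and outside them it was -0.006 (39 genes fitted).

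**Figure D4:**
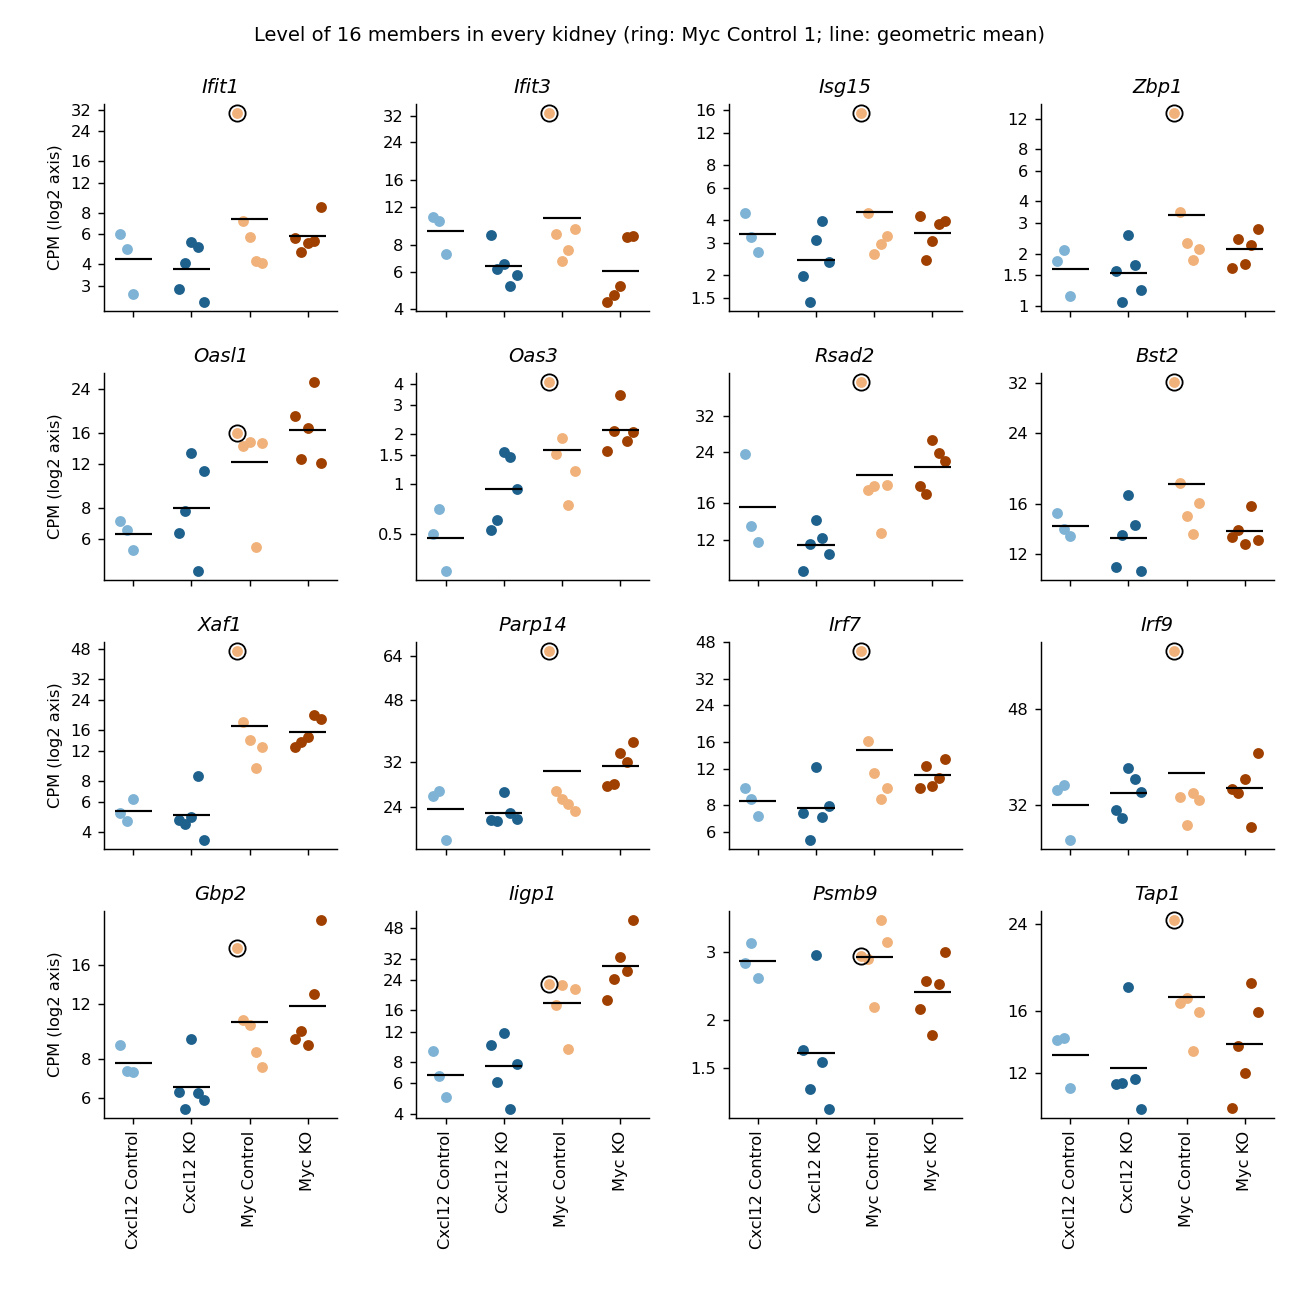
CPM (log2 axis) of 16 of the genes in every kidney by group; each point is 1 kidney, the line is the geometric mean of the group and the ring marks Myc Control 1. The ringed point is the highest of the 18 kidneys in every panel but those of Oasl1, Gbp2, Iigp1 and Psmb9.

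Whether the KO effect differs between the cohorts was tested as an interaction over all 18 kidneys. No gene of the list was called (0 of 40 by edgeR, with 1 at an unadjusted p under 0.05, 0 by DESeq2 with 1, and 0 by limma-voom with 0), against 11 of 15903 genes (0.0692%), with 1812 at an unadjusted p under 0.05 (11.4%). DESeq2 called 314 of all genes (1.97%) and limma-voom 3 (0.0189%). The gene with the small p was Ifi35, whose Myc effect was lower than its Cxcl12 effect by a log2 value of -0.37 (standard error 0.17, adjusted p = 0.43 from edgeR). The next by unadjusted p were Zbp1, Psmb9, Bst2 and Mx2, with differences of -0.99, 0.45, -0.38 and -1.03 and adjusted p from 0.66 to 0.68 from edgeR. In the Cxcl12 cohort Ifi35 had 14.99, 16.1 and 13.7 CPM in control and 13.4, 13.5, 19.5, 16.6 and 15.4 CPM in KO kidneys. Zbp1 had 1.83, 2.099 and 1.14 CPM in Cxcl12 Control, 1.58, 1.06, 2.57, 1.72 and 1.24 CPM in Cxcl12 KO and 1.66, 2.42, 1.74, 2.24 and 2.78 CPM in Myc KO kidneys, all far under the 12.9 CPM of Myc Control 1. Bst2 had 15.2, 13.9 and 13.3 CPM in Cxcl12 Control and 11.1, 13.4, 16.9, 14.2 and 10.9 CPM in Cxcl12 KO kidneys.

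Mx2, a dynamin-like GTPase, had 0.8297, 0.861 and 0.478 CPM in Cxcl12 Control, 1.1002, 0.871, 1.17, 0.721 and 1.12 CPM in Cxcl12 KO, 3.78, 1.05, 0.948, 0.677 and 0.356 CPM in Myc Control and 0.237, 0.563, 1.05, 1.18 and 1.47 CPM in Myc KO kidneys. The list median of the interaction was -0.23 with all kidneys and 0.18 without Myc Control 1, when 22 of 40 signs changed and still 0 genes of the list were called, against 26 of 15866 genes (0.164%). Rsad2 then had the smallest p, with a difference of 0.85 (standard error 0.28, adjusted p = 0.20 from edgeR).

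Levels were also compared between the cohorts, within the controls and within the KO kidneys. The mice of the cohorts carry different floxed alleles, and the cohort and the floxed allele cannot be told apart. In Myc Control against Cxcl12 Control kidneys, 39 of 40 genes had higher means in the Myc cohort (median log2 fold change 0.53), where 7840 of 15903 genes tested were higher. The test called 1 gene of the list, Xaf1, against 316 of 15903 genes (1.99%). DESeq2 called 7 of the list and 794 of all genes (4.99%), and limma-voom 0 of the list and 249 of all genes (1.57%). Without Myc Control 1 the median was 0.14 with 31 genes higher, and Xaf1 was again the only call in the list, against 543 of 15866 genes (3.42%). In Myc KO against Cxcl12 KO kidneys, a comparison added after the controls had been seen, 37 of 40 genes had higher means (median 0.43), and 7 were called, all higher in Myc KO, against 2416 of 15903 genes (15.2%). DESeq2 and limma-voom called 9 of the list each, and 3006 (18.9%) and 2597 (16.3%) of all genes. Outside the deeper libraries edgeR called 2 of the list and 337 of 15574 genes (2.16%). The share of the list that was called by edgeR, 17.5%, was near that of all genes.

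Xaf1, whose product antagonises an inhibitor of cell death, was the only gene of the list with every Myc cohort kidney above every Cxcl12 cohort kidney, where 28 of 15903 genes were (0.176%). It had 5.14, 4.63 and 6.22 CPM in Cxcl12 Control, 4.66, 4.47, 4.901, 8.49 and 3.597 CPM in Cxcl12 KO, 46.5, 17.9, 14.01, 9.48 and 12.8 CPM in Myc Control and 12.7, 13.5, 14.4, 19.6 and 18.5 CPM in Myc KO kidneys. The lowest Myc cohort value, 9.48 CPM in Myc Control 4, was close to the highest Cxcl12 cohort value, 8.49 CPM in Cxcl12 KO 4. The log2 fold change between the controls was 1.93 (standard error 0.42, adjusted p = 0.024 from edgeR), or 1.35 without Myc Control 1 (adjusted p = 0.0099), and between the KO groups it was 1.60 (standard error 0.35, adjusted p = 0.0068). The call in the controls was lost when any of the 3 Cxcl12 Control kidneys was left out, with adjusted p from 0.076 to 0.13 from edgeR, and the call in the KO groups held in all 21 alternatives.

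Iigp1 had the largest difference between the KO groups. It had 9.29, 6.62 and 4.96 CPM in Cxcl12 Control and 10.1, 6.14, 11.8, 4.27 and 7.75 CPM in Cxcl12 KO kidneys, against the values from 9.55 to 22.6 CPM of Myc Control and from 18.3 to 53.4 CPM of Myc KO kidneys given above. Between the KO groups the difference was 1.98 on the log2 scale (standard error 0.30, adjusted p = 0.00067 from edgeR), and every Myc KO kidney was above every Cxcl12 KO kidney. The share of all genes that separated the KO groups in this way was not counted, so separation here and below does not set a gene apart. Between the controls it was 1.42 (standard error 0.37, adjusted p = 0.051 from edgeR), outside the threshold. The call in the KO groups held in all 21 alternatives, with log2 fold changes from 1.58 to 2.15.

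In the OAS family no gene was called by edgeR in the controls. All 5 genes had an unadjusted p under 0.05 there, with log2 fold changes from 0.92 to 1.93, as had 16 of the 40 genes of the list and 2815 of all genes (17.7%). Without Myc Control 1, 4 of the 5 had it, against 3023 of all genes (19.1%). In the KO groups Oasl1 and Oas2 were called. Oasl1 had 15.96, 14.2, 14.7, 5.604 and 14.6 CPM in Myc Control and 18.7, 12.6, 16.8, 25.6 and 12.1 CPM in Myc KO kidneys, and 1.00 as log2 fold change between the KO groups (standard error 0.29, adjusted p = 0.026 from edgeR). That call was lost in 5 of 21 alternatives and the call of Oas2 in 11. Oas2 had 2.93, 3.55 and 2.27 CPM in Cxcl12 Control, 2.82, 2.24, 4.51, 2.997 and 2.36 CPM in Cxcl12 KO, 12.6, 5.96, 5.48, 3.203 and 4.81 CPM in Myc Control and 4.904, 3.94, 6.08, 5.71 and 7.06 CPM in Myc KO kidneys, with 0.92 between the KO groups (standard error 0.30, adjusted p = 0.043 from edgeR). Oas3 had 4.09, 1.51, 1.895, 0.739 and 1.19 CPM in Myc Control and 1.58, 2.08, 3.43, 1.801 and 2.04 CPM in Myc KO kidneys, and its log2 fold changes of 1.93 in the controls and 1.17 in the KO groups had adjusted p of 0.065 and 0.058 from edgeR.

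The remaining calls between the KO groups were Gbp2, Rsad2 and Trim30a. Gbp2 had 8.85, 7.32 and 7.23 CPM in Cxcl12 Control, 6.25, 5.53, 9.26, 6.22 and 5.89 CPM in Cxcl12 KO, 18.1, 10.7, 10.3, 8.44 and 7.53 CPM in Myc Control and 9.26, 9.8002, 8.87, 12.98 and 22.3 CPM in Myc KO kidneys. Its log2 fold change of 0.95 (standard error 0.26, adjusted p = 0.022 from edgeR) lost its call without Cxcl12 KO 2, Cxcl12 KO 4 or Myc KO 5 and outside the deeper libraries, with adjusted p from 0.051 to 0.13 from edgeR. The KO groups overlapped in Gbp2 by the value of Cxcl12 KO 3. Rsad2 differed by 0.91 (standard error 0.26, adjusted p = 0.026 from edgeR) on the values given above, without overlap of the KO groups, and the call was lost in 8 of 21 alternatives. Trim30a, a tripartite motif protein, had 9.24, 8.34 and 7.05 CPM in Cxcl12 Control, 8.58, 9.43, 13.8, 7.88 and 8.68 CPM in Cxcl12 KO, 30.03, 14.6, 20.5, 10.3 and 12.3 CPM in Myc Control and 12.1, 13.3, 19.4, 19.4 and 23.6 CPM in Myc KO kidneys, with 0.87 between the KO groups (standard error 0.25, adjusted p = 0.027 from edgeR). The KO groups of Trim30a overlapped, its call was also lost in 8 alternatives, and between the controls it had 1.10 (adjusted p = 0.065 from edgeR).

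**Figure D5:**
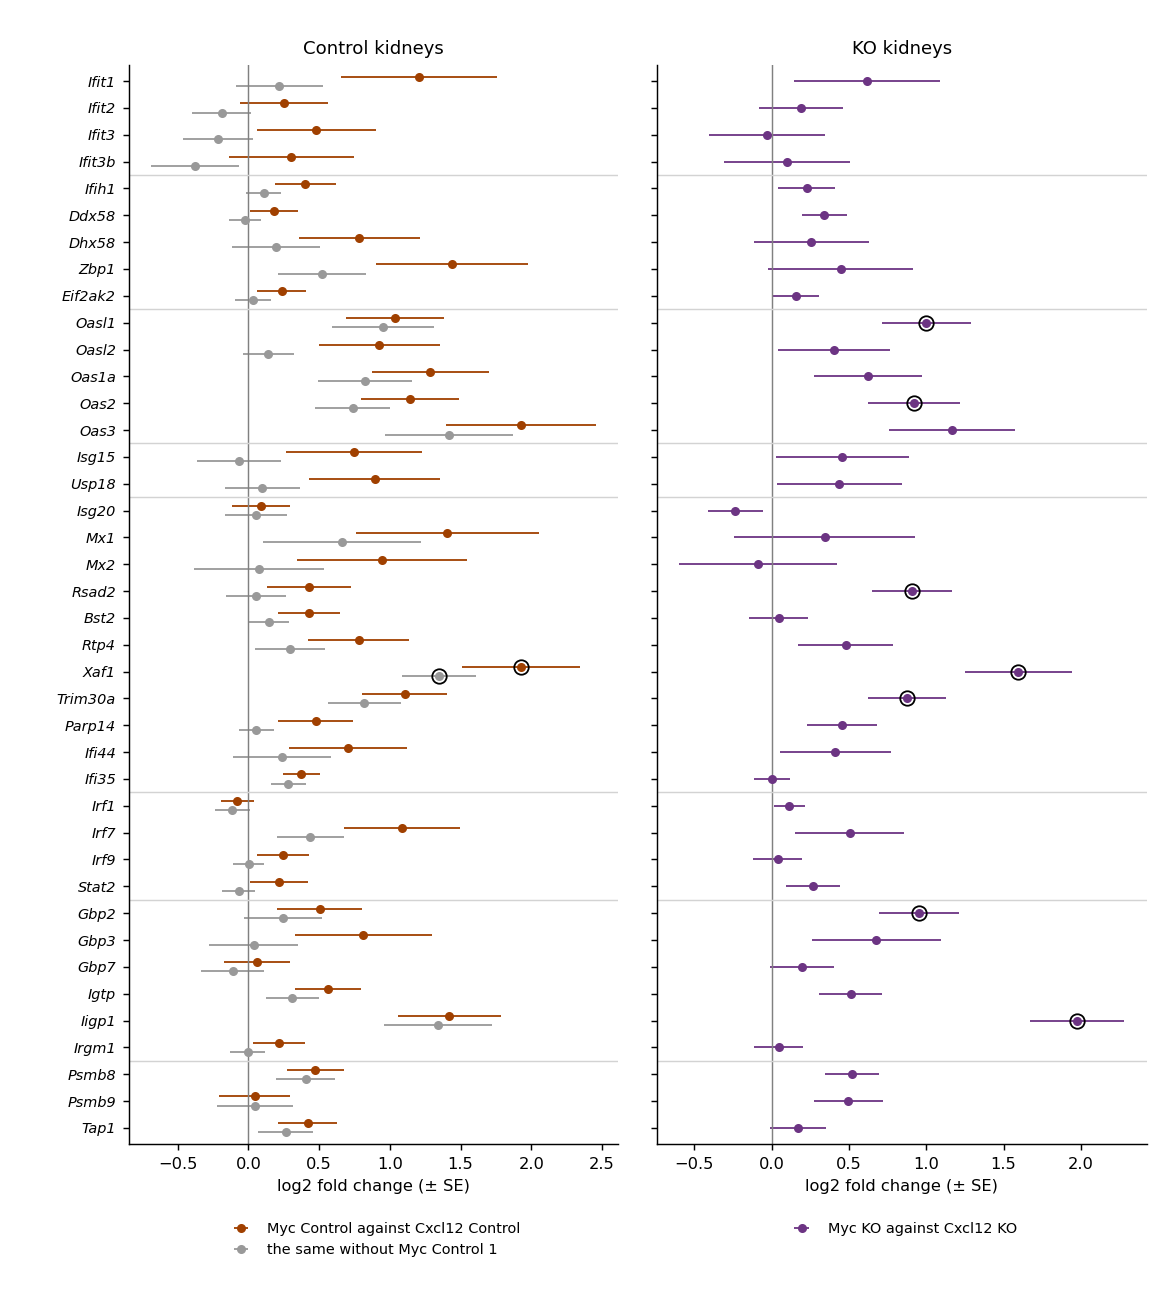
Log2 fold change of the Myc cohort against the Cxcl12 cohort with its standard error for the 40 genes, from edgeR: left in control kidneys with (brown) and without (grey) Myc Control 1, right in KO kidneys; rings mark an adjusted p under 0.05. Xaf1 is ringed in both panels, and Oasl1, Oas2, Rsad2, Trim30a, Gbp2 and Iigp1 in the right panel.

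Cell type markers moved in the same comparisons. Between the KO groups, 5 of 6 neutrophil, 3 of 4 general leukocyte and all 5 endothelial markers were called higher in Myc KO kidneys. So were 1 of 6 macrophage and 1 of 4 proximal tubule markers. Of the 3 injury markers, 1 was called higher and 1 lower. Between the controls, the neutrophil markers S100a8 (2.51) and S100a9 (2.4) and the injury marker Lcn2 (1.14) were called higher in Myc Control kidneys. The proximal tubule marker Lrp2 (-0.63) was called lower there. The injury marker Havcr1 had a lower mean in Myc Control (507 CPM) than in Cxcl12 Control kidneys (625 CPM) and was not called. The summed neutrophil markers ranged from 18.4 to 25.9 CPM in Cxcl12 Control, from 29.3 to 131 CPM in Cxcl12 KO, from 42.6 to 227 CPM in Myc Control and from 138 to 261 CPM in Myc KO kidneys. Neither the KO groups of the cohorts nor KO and control kidneys of the Cxcl12 cohort overlapped in these sums. Their part in the differences of Xaf1, Iigp1 and the other calls was not tested. Within a cohort, 0 markers were called by edgeR in either KO comparison, where 0 of 15154 genes were called for Cxcl12 and 246 of 14936 (1.65%) for Myc. Markers with few reads were not tested, among them all 3 B cell markers. The 5 neutrophil markers tested were all higher in KO kidneys, with a median log2 fold change of 1.74 for Cxcl12 and 0.65 for Myc.

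The rest of the pathway was read from 6 lists of 50 genes. The 10 interferons had too few reads to test. In the Cxcl12 cohort 0 of the other 40 genes were called by edgeR, and the smallest adjusted p was 0.13 for the phosphatase Ptpn2, a brake on Jak kinases, with a log2 fold change of 0.36. In the Myc cohort Socs3, the feedback inhibitor of Jak kinases, was the only call of the 40. It had 72.9, 95.7, 106, 66.2 and 88.9 CPM in Myc Control and 127, 157, 154, 193 and 139 CPM in Myc KO kidneys, a log2 fold change of 0.84 (standard error 0.14, adjusted p = 0.018 from edgeR), and 0.79 without Myc Control 1 (adjusted p = 0.033). Every Myc KO kidney was above every Myc Control kidney. The next were Psmb10, an immunoproteasome subunit, at -0.37 (adjusted p = 0.070 from edgeR) and Jak2 at 0.31 (adjusted p = 0.086 from edgeR).

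Between the cohorts, pathway genes outside the list were called as well. Of all genes tested, 1.99% were called in the controls and 15.2% between the KO groups. Of the 40 tested in the controls, Ptpn2 (0.38, adjusted p = 0.032 from edgeR) and B2m, the light chain of class I molecules (0.56, adjusted p = 0.032), were called, both higher in Myc Control kidneys, and 10 of 10 class I genes had higher means. Between the KO groups Socs3 (0.75, adjusted p = 0.0085 from edgeR), Jak2 (0.33, adjusted p = 0.0091), Ifnar2 (0.30, adjusted p = 0.017) and Tmem173, which encodes the DNA-sensing adaptor STING (0.65, adjusted p = 0.027), were called higher in Myc KO kidneys.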

How the data were processed

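Whole-kidney RNA was sequenced in 18 samples. The count files were deposited as made by the authors with STAR 2.4.0 on GRCm38 after trimming with Trimmomatic 0.32, as read counts per gene that are not normalized, with a column that ignores strand and a column for each strand. Rows that name no gene held 29.4 to 32.6% of the reads of a library and were left out. The column without strand was analysed in R 4.3.3 with edgeR 4.0.16 (filterByExpr, TMM, quasi-likelihood test, Benjamini-Hochberg adjustment over all genes tested, threshold 0.05), within each cohort for KO against control kidneys and over 18 kidneys in 4 groups for the interaction and the comparisons between cohorts. DESeq2 1.42.0 and limma-voom (limma 3.58.1) were alternatives, and the fits were tested on simulated data. A batch step that the study's methods mention without naming the batch was not repeated. CPM used TMM-scaled library sizes, and RPKM used exon lengths of GENCODE. Single genes within a cohort were also compared by an exact two-sided permutation test. In all 33 replicate pairs the counts differed beyond sampling noise (chi-square over its degrees of freedom, 5.77 to 69.1). Values by kidney were given for genes that were called in a comparison, for the 5 of smallest p where fewer than 5 were, for genes whose groups did not overlap, and for the highest gene by RPKM of each role; Ifit1, Isg15 and Irf7 were added after their values were seen. The members, roles, marker lists and pathway lists were chosen with earlier results of these data known. An item of the pathway lists is not reported here.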

Additional observations from a re-analysis of the deposited data

Results flagged for a closer look

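A kidney was singled out by its gap to the nearest other kidney of its group, divided by the range of the group, both in log2 CPM. The ratio had to pass Dixon's 95% limit for 5 kidneys, which chance passes in about 1 of 20 groups. The 40 genes were read in the 3 groups of 5 kidneys, and 16 of the 120 gaps passed. Myc Control 1 was the high kidney in 10 of them, with ratios of 0.723 for Ifit1, 0.803 for Ifit2, 0.787 for Ifit3, 0.764 for Ifih1, 0.85 for Ddx58, 0.744 for Oasl2, 0.815 for Irf9, 0.873 for Parp14, 0.878 for Ifi44 and 0.742 for Eif2ak2. Cxcl12 KO 3 was the high kidney for Oasl2 (0.804), Parp14 (0.739), Gbp2 (0.763) and Tap1 (0.759). Myc KO 5 was the high kidney for Irgm1 (0.895), and Myc Control 4 the low kidney for Oasl1 (0.89). Genes of the list vary together within a kidney, so these gaps are not independent. The share of all genes that passed this limit was not counted, so the gaps do not set the list apart.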

How the results depend on the processing

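No gene of the list was called for Cxcl12, for Myc or for the difference of KO effects under any alternative run. The list median for Myc turned from -0.31 to 0.10 without Myc Control 1, and over all kidneys left out in turn it ranged from -0.38 to 0.10. In the Cxcl12 cohort it ranged from -0.21 to -0.0023. With a replicate block the medians were -0.014 for Cxcl12 and -0.19 for Myc. The replicate numbers did not pair the samples (correlations of deviations from -0.0349 to 0.143 for Cxcl12 and from -0.157 to 0.379 for Myc). In Myc Control against Cxcl12 Control kidneys, where edgeR called 1 gene, DESeq2 called 7, limma-voom 0, and leaving out a kidney gave 0 to 7. The share of all genes called moved as well, from 1.99% in the main fit to 3.42% without Myc Control 1. Counts of calls in the list are therefore to be read beside the share of all genes called in the same fit. By DESeq2 that share was 4.99% between the controls. In Myc KO against Cxcl12 KO kidneys, where 7 were called, 2 were called outside the deeper libraries (2.16% of all genes called), and leaving out a kidney gave 2 to 12, with 12 without Myc Control 1 (16.3% of all genes). Over all genes DESeq2 called 355 against 0 by edgeR in the Cxcl12 cohort, 1139 against 246 in the Myc cohort, 314 against 11 for the difference and 794 against 316 between the controls. The replicate block left 18 calls over all genes in the Myc cohort. The comparison of the KO groups and the fit within the deeper libraries were chosen after seeing the data. Causes of these changes were not tested. Mx1, Mx2 and Oas3 had fewer than 10 reads in a kidney, which limits their precision.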

Other observations

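Outside the list, 8 further genes were at least 2 times higher in Myc Control 1 than in any other kidney, and they were chosen for this after their values were seen. Rnf213, a large ubiquitin ligase, had 219.7 CPM there against at most 103.8 CPM elsewhere. Ifi203, Ifi204 and Ifi213, of the Ifi200 family of DNA-binding proteins, stood at 2.62, 2.10 and 3.48 times the highest other kidney. Ddx60, a helicase, stood at 2.76 times, Oas1g at 2.39 times, Siglec1, a macrophage sialic acid receptor, at 2.45 times and Cd72, a B cell surface protein, at 2.67 times. The summed macrophage and B cell markers of that kidney ranked 13 and 16 of 18, and each B cell marker had at most 7 reads in any kidney.

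The spread of the list among Myc Control kidneys, as the median standard deviation of log2 CPM, was 0.63 with Myc Control 1 and 0.26 without it. It was 0.26 in Cxcl12 Control, 0.31 in Cxcl12 KO and 0.29 in Myc KO kidneys. Over all genes tested the spread was smaller in each group. It was 0.15 in Cxcl12 Control, 0.22 in Cxcl12 KO and 0.19 in Myc KO kidneys. In Myc Control kidneys it was 0.23 with Myc Control 1 and 0.21 without it. Where Myc Control 1 was the highest kidney, Myc KO 5 was the second in 14 genes and Myc Control 2 in 9.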
